A study of Sus scrofa with 12 samples.

Results

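The genes that make microRNAs (miRNAs) and load them into Argonaute proteins were followed in ovaries of sows that differed in litter size. They were taken by their symbols from the deposited gene expression table, and 10 of its 29884 genes matched, 1 for each symbol. They are DROSHA, DGCR8, XPO5, DICER1, TARBP2, AGO1, AGO2, AGO3, AGO4 and TNRC6A. Left ovaries came from commercial sows 4 days after the 4th delivery, 3 sows with small litters (SLS, a mean of 8.48 piglets per litter, ovaries ZD2, ZD3 and ZD12) and 3 with large litters (LLS, 16.19 piglets per litter, ovaries ZD5, ZD7 and ZD8). The labels name no treatment, breed or age. Each ovary gave 1 library of RNA depleted of ribosomal RNA and 1 small RNA library. Whole ovarian tissue was used, so that fewer cells of a type and less RNA per cell cannot be told apart in any value below.

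A miRNA is made in steps, and each of the genes acts at a known step. DROSHA, a ribonuclease of the nucleus, and its RNA-binding partner DGCR8 form the Microprocessor, which cuts the hairpin out of the primary transcript. XPO5 (exportin 5) carries the hairpin to the cytoplasm, where DICER1 trims it to a duplex with the help of the double-stranded RNA-binding protein TARBP2. A strand of the duplex is loaded into an Argonaute protein (AGO1 to AGO4), and TNRC6A (GW182) links the loaded Argonaute to the enzymes that shorten and decap the target mRNA. In the mouse, loss of DICER1 or AGO2 from the oocyte, and of DICER1 from somatic cells of the female reproductive tract, is known to impair fertility.

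Read totals were worked back from the deposited values, by taking the most common low value (genes) or the lowest value (small RNA) as 1 read. On this basis the gene libraries held between 32272803 reads (ZD8) and 60903268 reads (ZD2), and the small RNA libraries between 3537619 and 9854086 reads. Levels are given as FPKM, read numbers scaled by the length of the transcript and the size of the library, and between 544 and 19665 reads lay behind each value of the 10 genes. Differences were tested on log2(FPKM + 1) by limma over the 12260 genes with at least 1 FPKM in at least 3 libraries, and all 10 genes passed this filter in 6 of 6 ovaries. The LLS ovary ZD8 stood apart from the other 5 ovaries. Its 6 luteal cell markers summed to 123 FPKM against 9167 to 12191 FPKM elsewhere, with 6 of 6 lowest in ZD8, and the 9 oocyte markers found in the table summed to 160 FPKM against 6.50 to 26.7 FPKM, with 9 of 9 highest in ZD8. No marker of these 2 lists was at 0 in ZD8, while the oocyte markers ZP2 and FIGLA were at 0 in at least 1 other ovary. For this reason, the differences of the 10 genes and of the miRNAs, and the counts and medians of the gene lists, are also given without ZD8.

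All 10 genes were expressed in every ovary, and XPO5 was by far the most abundant, with a mean of 45.8 FPKM over the 6 ovaries and a range of 34.7 to 54.2 FPKM. AGO2 followed with 14.9 FPKM, and its range of 9.70 to 26.4 FPKM did not reach that of XPO5. Below it came DICER1 (13.1 FPKM), TNRC6A (12.9 FPKM), DGCR8 (12.5 FPKM), AGO1 (11.3 FPKM), TARBP2 (9.52 FPKM), AGO4 (9.22 FPKM), DROSHA (8.02 FPKM) and AGO3 (6.21 FPKM). Below XPO5, the ranges of every 2 neighbours in this order overlapped. AGO2 was above DICER1 in 5 of 6 ovaries and TNRC6A above DGCR8 in 3, so the order from AGO2 down to DGCR8 was not the same in all ovaries. The comparison of levels between genes rests on the annotated transcripts. That of AGO2 is 2561 nt long and holds coding sequence only, while that of AGO3 is 16626 nt long with 13682 nt of 3′ untranslated region.

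**Figure D1:**
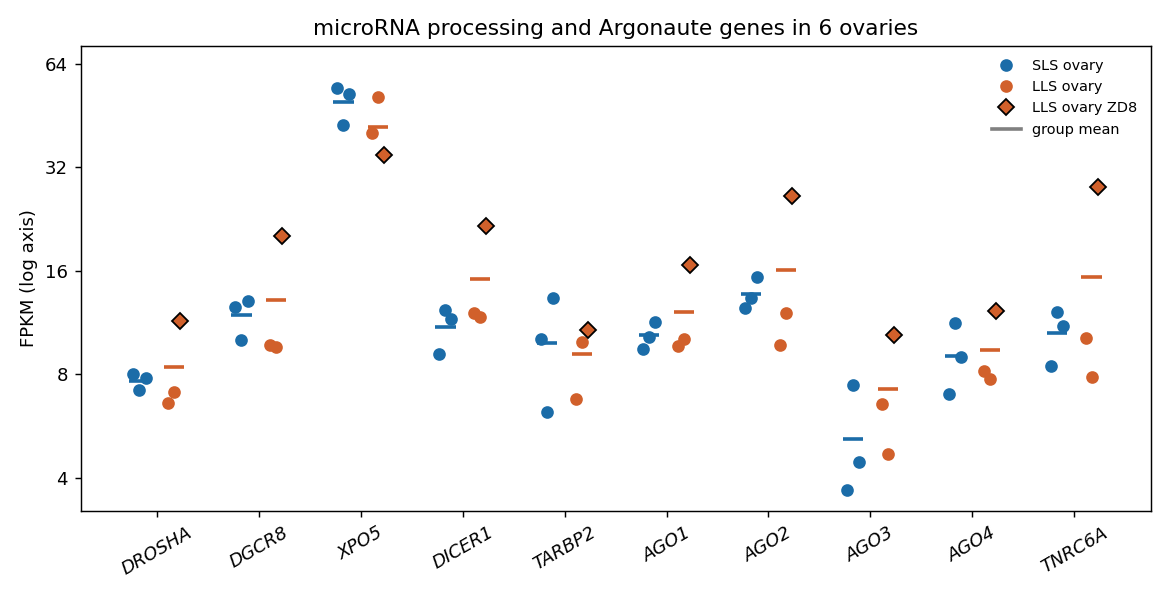
FPKM (log axis) of each gene in the 3 SLS ovaries (blue) and 3 LLS ovaries (orange), with bars at the group means and a diamond for ZD8. In 8 of the 10 genes ZD8 is the highest of the 6 ovaries, and in XPO5 it is the lowest.

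The Microprocessor genes were both highest in ZD8. DROSHA (chromosome 16, 17727695 to 17847954, minus strand, Sscrofa11.1) was at 8.02, 7.17 and 7.79 FPKM in ZD2, ZD3 and ZD12 (SLS) and at 6.60, 7.08 and 11.4 FPKM in ZD5, ZD7 and ZD8 (LLS). The SLS values lay close together, while the LLS ovaries held both the lowest values and the highest. The means were 7.66 ± 0.437 FPKM in SLS (SD, n = 3) and 8.38 ± 2.67 FPKM in LLS (SD, n = 3). DGCR8 was at 12.5, 10.1 and 13.0 FPKM in ZD2, ZD3 and ZD12 and at 9.74, 9.59 and 20.1 FPKM in ZD5, ZD7 and ZD8. As with DROSHA, ZD5 and ZD7 were below the 3 SLS ovaries and ZD8 was above them. The ratio of DROSHA to DGCR8, both per length, lay between 0.569 in ZD8 and 0.738 in ZD7.

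DGCR8 itself carries a miRNA. Its gene lies on the plus strand of chromosome 14 from 51473512 to 51489535, with 13 exons, and the hairpin of MIR1306 lies at chr14:51473918-51473997, inside the coding part of exon 1 and 101 bases after the first coding base. The hairpin is shown because it lies within the mRNA of a Microprocessor subunit, and the capitals mark the 5p and then the 3p mature arm, read from the reference genome at the arms' sequences in the miRNA table.
MIR1306: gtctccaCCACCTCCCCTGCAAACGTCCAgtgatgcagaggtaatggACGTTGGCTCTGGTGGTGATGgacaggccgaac

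Both arms of miR-1306 were detected in the small RNA libraries of all 6 ovaries, given as RPM, read numbers scaled by the size of the small RNA library. The 5p arm was at 18.8, 43.5 and 41.6 RPM in ZD2, ZD3 and ZD12 and at 63.9, 29.5 and 24.1 RPM in ZD5, ZD7 and ZD8. The 3p arm was at 75.8, 38.4 and 36.9 RPM in the same SLS ovaries and at 51.6, 75.1 and 32.3 RPM in the LLS ovaries. The summed arms were lowest in ZD8 (56.4 RPM against 78.5 to 115 RPM), the ovary in which the DGCR8 level was highest. The 5p arm took 19.9% of the reads of the hairpin in ZD2 (95% Wilson interval 16.8 to 23.4%, from 110 reads of the 5p and 443 of the 3p arm) and 28.2% in ZD7 (25.0 to 31.6%). It took 42.7% in ZD8 (38.3 to 47.1%), 53.1% in ZD3 (47.4 to 58.8%), 53.0% in ZD12 (49.4 to 56.5%) and 55.3% in ZD5 (51.7 to 59.0%). The share thus differed between ovaries of the same group by more than counting error, which is all that these intervals cover. The 5p arm led beyond counting error in ZD5 and the 3p arm in ZD2, ZD7 and ZD8, while the intervals of ZD3 and ZD12 held equal shares. Between the groups, the share of the 5p arm was 42.0 ± 19.1% in SLS and 42.1 ± 13.6% in LLS (SD, n = 3 each, exact two-sided permutation p = 1).

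XPO5 was lowest in ZD8, the opposite of the Microprocessor genes. It was at 54.2, 42.3 and 52.1 FPKM in ZD2, ZD3 and ZD12 and at 40.1, 51.1 and 34.7 FPKM in ZD5, ZD7 and ZD8, from 6680 to 19665 reads. The groups overlapped, with means of 49.5 ± 6.34 FPKM in SLS and 42.0 ± 8.36 FPKM in LLS (SD, n = 3 each). XPO5 occupies bases 38530704 to 38569558 of chromosome 7, minus strand. Its exons share 1235 bases with POLR1C and 290 bases with POLH, both on the opposite strand. The library preparation kept strand, by removal of the second cDNA strand, and whether reads were then counted by strand is not given in the sources used here. POLR1C was at 8.06 to 11.4 FPKM and POLH at 4.09 to 8.91 FPKM, below XPO5 in every ovary, and in ZD8 POLR1C was at its lowest, as XPO5 was, and POLH at its highest. The part of these genes in the level of XPO5 was not tested.

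DICER1, the gene of the cytoplasmic ribonuclease (chromosome 7, 116361630 to 116436471, minus strand), was at 9.13, 12.3 and 11.6 FPKM in ZD2, ZD3 and ZD12 and at 12.1, 11.7 and 21.6 FPKM in ZD5, ZD7 and ZD8. Apart from ZD8, the highest of the ovaries by 1.76-fold over the next, the values spanned only 1.34-fold. The means were 11.0 ± 1.65 FPKM in SLS and 15.1 ± 5.59 FPKM in LLS (SD, n = 3 each). TARBP2, its partner (chromosome 5, 18718588 to 18723843, plus strand), was at 10.1, 6.21 and 13.3 FPKM in ZD2, ZD3 and ZD12 and at 6.79, 9.94 and 10.8 FPKM in ZD5, ZD7 and ZD8. It had the largest spread of the 10 genes over the ovaries other than ZD8, with a coefficient of variation of 30.9%, and the fewest reads (544 to 1190). For TARBP2 only ZD12 was higher than ZD8.

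miR-103 and miR-107 are known regulators of DICER1, and they share a seed (bases 2 to 8), shown in capitals in the mature sequences as the deposited table gives them, in DNA letters. The hairpins of miR-103 lie within PANK3 (chromosome 16, 55329442 to 55329523) and PANK2 (chromosome 17, 31808837 to 31808916), and that of miR-107 within PANK1 (chromosome 14, 101420743 to 101420829).
miR-103: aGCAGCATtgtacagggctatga
miR-107: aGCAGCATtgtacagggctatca

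The reverse complement of this seed, ATGCTGC, was searched on the mRNA strand of the annotated 3′ untranslated regions. That of DICER1 is 4332 nt long in the longest transcript and held 4 matches. Over 1455 regions of at least this length, each cut to its first 4332 nt, 33.3% held at least 1 match and 0.137%, DICER1 included, held 4 or more. The matches are printed in order along the mRNA, with the match in capitals and its position on chromosome 7 (minus strand, Sscrofa11.1), since they are the stretches of DICER1 with these letters.
chr7:116364921-116364927: catacctaaaatATGCTGCagatttta
chr7:116364319-116364325: atgcttcatgtaATGCTGCgtttatgt
chr7:116363079-116363085: gcagtcctgacgATGCTGCgtttcgtc
chr7:116361798-116361804: ttaccatcacatATGCTGCgctgtttt

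Matches of these letters were also found in AGO4 (2), AGO1 (1) and AGO3 (1), and in none of the other 3′ regions annotated for these genes. AGO2 and TNRC6A have no such region in the transcripts used. The match to the seed of let-7a and let-7f, CTACCTC, was not found in the 3′ region of DICER1, and 21.2% of the regions cut to the same length held it. It was found in AGO3 (2) and TARBP2 (1). miR-103 was at 1763, 2863 and 1894 RPM in ZD2, ZD3 and ZD12 and at 3285, 2147 and 1049 RPM in ZD5, ZD7 and ZD8. miR-107 was at 201, 285 and 267 RPM in the SLS ovaries and at 387, 269 and 114 RPM in the LLS ovaries. Both were lowest in ZD8, where DICER1 was highest. Among the other 5 ovaries, ZD2 had the lowest miR-103, miR-107 and DICER1. The part of these miRNAs in the level of DICER1 was not tested.

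AGO2, the Argonaute best known for cutting its target, was the most abundant of its family by FPKM in 6 of 6 ovaries. By reads it was the lowest of its family in each ovary (1430 to 2185 reads against 3674 to 6412 for the others). Its rank thus rests on its short annotated transcript of 2561 nt. It was at 12.5, 13.3 and 15.3 FPKM in ZD2, ZD3 and ZD12 and at 9.70, 12.01 and 26.4 FPKM in ZD5, ZD7 and ZD8. The LLS ovaries again held the lowest and the highest values, with 13.7 ± 1.47 FPKM in SLS and 16.0 ± 9.07 FPKM in LLS (SD, n = 3 each). In ZD5, AGO2 (9.70 FPKM) and AGO1 (9.63 FPKM) were nearly level. AGO2 lies on chromosome 4 from 2966794 to 3012388.

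AGO4, AGO1 and AGO3 lie one after the other on the plus strand of chromosome 6, over 258313 bases from 91967499 to 92225811. Only 25073 bases separate AGO4 from AGO1 and 5285 bases separate AGO1 from AGO3. AGO1 was at 9.48, 10.3 and 11.4 FPKM in ZD2, ZD3 and ZD12 and at 9.63, 10.2 and 16.7 FPKM in ZD5, ZD7 and ZD8. It was the steadiest of the 10 genes in the ovaries other than ZD8 (coefficient of variation 7.29%). AGO3 was at 3.68, 7.46 and 4.45 FPKM in ZD2, ZD3 and ZD12 and at 6.57, 4.69 and 10.4 FPKM in ZD5, ZD7 and ZD8, a coefficient of variation of 29.4% without ZD8. AGO4 was at 6.99, 11.2 and 8.95 FPKM in ZD2, ZD3 and ZD12 and at 8.18, 7.72 and 12.2 FPKM in ZD5, ZD7 and ZD8. AGO1 thus had a smaller spread than its neighbour AGO3. Exons at the start of AGO4 share 217 bases with CLSPN on the opposite strand, which was at 1.27 to 2.68 FPKM, and those of AGO1 share 137 bases with LOC102165851 on the opposite strand, which was listed at 0 in all 6 libraries.

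Within the summed level of AGO1 to AGO4, which was 65.7 FPKM in ZD8 and 32.6 to 42.2 FPKM in the others, AGO2 took between 28.5% (ZD5) and 40.2% (ZD8). AGO1 took 24.3 to 29.4%, AGO4 18.6 to 26.6% and AGO3 11.1 to 19.3%. The share of AGO3 was largest in ZD5 and ZD3 and smallest in ZD12 and ZD2. The mean share of AGO2 was 36.0 ± 3.93% in SLS and 34.5 ± 5.88% in LLS (SD, n = 3 each, exact two-sided permutation p = 0.7), and that of AGO3 was 13.3 ± 3.74% in SLS and 16.2 ± 2.87% in LLS (exact p = 0.3). None of the 4 shares differed between the groups beyond the spread of the ovaries (exact p of 0.3 to 0.7, adjusted over the 4 shares 0.7 for each), and 3 ovaries against 3 cannot go below p = 0.1. The difference in the share of AGO2, LLS minus SLS, was -1.53 percentage points, and it was -4.40 without ZD8, -3.80 without ZD3 and 1.48 without ZD5. Without ZD8 the differences of AGO1, AGO3 and AGO4 were 1.59, 3.08 and -0.27 percentage points, against 0.43, 2.89 and -1.79 with all ovaries.

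**Figure D2:**
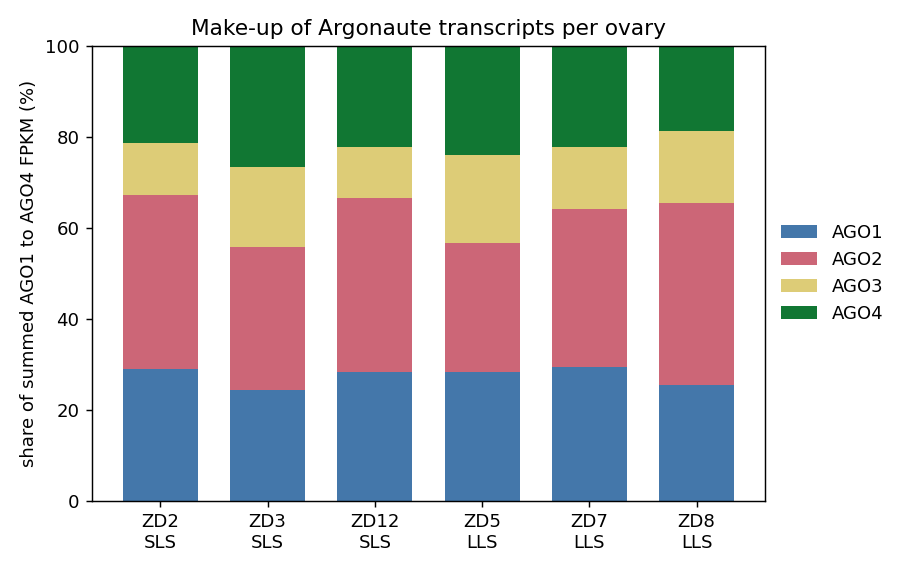
Share (%) of AGO1 to AGO4 in their summed FPKM in each ovary, 1 bar per ovary. The AGO2 band is widest in ZD8 (40.2%) and narrowest in ZD5 (28.5%), both LLS ovaries.

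TNRC6A had the largest gap between ZD8 and the rest. It was at 8.44, 12.1 and 11.1 FPKM in ZD2, ZD3 and ZD12 and at 10.2, 7.82 and 27.9 FPKM in ZD5, ZD7 and ZD8, so that ZD8 was 2.31 times the next ovary. The means were 10.5 ± 1.88 FPKM in SLS and 15.3 ± 11.0 FPKM in LLS (SD, n = 3 each). Its gene is placed on a scaffold that is not assigned to a chromosome, from 578944 to 823812, and its longest transcript there is a non-coding model. Its paralogs TNRC6B and TNRC6C, which belong to the same family of Argonaute partners, were also highest in ZD8. TNRC6B reached 23.1 FPKM there and 8.32 to 13.0 FPKM elsewhere, and TNRC6C 12.5 FPKM there and 2.98 to 3.89 FPKM elsewhere.

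The 10 genes were then compared between LLS and SLS ovaries, the contrast for which the ovaries were chosen. None passed an adjusted p under 0.05 with an absolute log2 difference over 1 (0 of 10 by limma, where 0% of the 12260 genes tested were called and 216 had an unadjusted p under 0.05), none of the 10 had an unadjusted p under 0.05, and on reads recovered from the FPKM, DESeq2 and edgeR's quasi-likelihood test also called 0 of 10, with none under an unadjusted 0.05. Over all genes, edgeR called 0 and DESeq2 called 20. Mean log2(FPKM + 1) was higher in LLS for 8 genes and lower for XPO5 and TARBP2, with a median difference of 0.09 over the 10 genes and 0.02 over all genes tested. The largest were AGO3 at 0.40 (standard error 0.36) and DICER1 at 0.38 (standard error 0.31, 95% interval -0.33 to 1.09). TNRC6A followed at 0.31 (standard error 0.44) and XPO5 was at -0.24 (standard error 0.27). By limma, each of the 10 genes had an adjusted p of 0.999. The exact permutation p was 0.2 for XPO5 and 0.4 to 1 for the others. The intervals of all 10 genes, from -0.87 at the lowest to 1.33 at the highest, held 0, and they leave room for differences of over 1 in DICER1, AGO3 and TNRC6A. In no gene did the 3 LLS ovaries lie all below or all above the 3 SLS ovaries (0 of 10, against 3.17% and 1.95% of all genes).

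Without ZD8 the picture turned. Of the 10 genes, 8 were then lower in LLS and only DICER1 (0.11) and AGO3 (0.13) were higher, with a median of -0.14 over the 10 genes and -0.10 over all genes. Over all genes, 6446 of 12260 were higher in LLS with all 6 ovaries, and 7886 of 11985 were lower without ZD8. The most negative were AGO2 at -0.31 (standard error 0.24) and DGCR8 at -0.27 (standard error 0.24). None was called by limma (adjusted p = 1 for each when rounded, 0 of 10, against 0.167% of the genes tested without ZD8), and the 2 remaining LLS ovaries were taken to vary like the SLS ovaries. ZD5 and ZD7 both lay below the 3 SLS ovaries for DROSHA, DGCR8 and AGO2 (3 of 10 genes, against 11.7% of all genes) and both above them for none (7.44% of all genes).

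**Figure D3:**
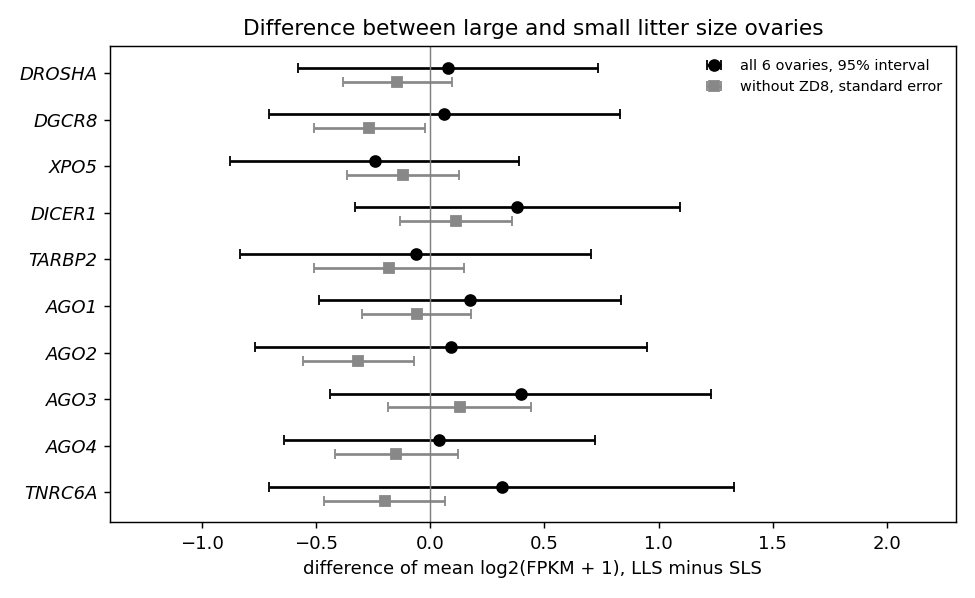
Difference of mean log2(FPKM + 1), LLS minus SLS, for each gene, with the 95% interval of limma from all 6 ovaries (black) and the value with its standard error without ZD8 (grey). Every black interval crosses 0, and the grey values lie below 0 for 8 of the 10 genes.

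The position of ZD8 was therefore set against all genes. ZD8 was the highest of the 6 ovaries for 8 of the 10 genes, against 44.6% of all tested genes, and the lowest for 1, XPO5, against 26.3%. On the log2(FPKM + 1) scale, the median of ZD8 minus the mean of the other 5 ovaries was 0.74 over the 10 genes and 0.23 over all tested genes. It reached 1.42 for TNRC6A, 1.03 for AGO2 and 0.88 for DICER1 and AGO3. XPO5 was at -0.44 and TARBP2 at 0.24. These are descriptions of a single library, chosen after its values were seen, and carry no test. Across genes, the level in ZD8 relative to the mean of the 6 ovaries rose with transcript length (Spearman's rho 0.23, the highest of the 6). Of the 10 genes, all but AGO2 (2561 nt) and TARBP2 (1693 nt) have longest transcripts above the median of 3400 nt, XPO5 (5959 nt) included. The part of transcript length in the values of ZD8 was not tested. Beside the luteal and oocyte markers given above, the 6 immune markers were all highest in ZD8 (summed 40.9 FPKM against 18.2 to 31.8 FPKM), and 5 of 6 endothelial markers were lowest (122 FPKM against 265 to 396 FPKM). Of 4 theca markers, 3 were highest (452 FPKM against 15.4 to 94.8 FPKM). The granulosa list summed to 170 FPKM in ZD8 against 196 to 882 FPKM (3 of 7 highest, 1 lowest, CYP19A1 at 0). INHA was the largest part of this sum in every ovary and was the lowest (66.4 FPKM in ZD8 against 162 to 726 FPKM). FSHR, AMH and FOXL2 were the 3 highest. The stroma list summed to 3425 FPKM against 3786 to 9601 FPKM (3 of 7 highest, 3 lowest). The smooth muscle list summed to 942 FPKM in ZD8 and 329 to 1873 FPKM elsewhere, with 2 of 6 highest in ZD8 and 0 lowest, and MYH11 at 190 FPKM in ZD8 against 15.5 to 47.1 FPKM. The surface epithelium list summed to 18.1 FPKM in ZD8 and 5.10 to 53.9 FPKM elsewhere, with 0 of 5 highest and 1 lowest (KRT7, 0.634 FPKM), and KRT18 at 0 in at least 1 other ovary. The part of these cell types in the levels of the 10 genes was not tested.

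A list of 12 genes of the germ line small RNA pathway, which uses the PIWI branch of the Argonaute family, gave low values of at most 4.47 FPKM, and all 12 were below the filter. All 12 were highest in ZD8, summed to 21.9 FPKM there and to 1.04 to 3.41 FPKM elsewhere. The share of genes highest in ZD8 given above covers only genes that passed the filter, so this count has no share beside it. ZD8 also had the most genes at 1 FPKM or more (13908 against 11832 to 12531). PIWIL1 was listed at 1.17 FPKM in ZD8 and at 0 to 0.0861 FPKM in the others, and PIWIL2 at 2.23 FPKM against 0.0175 to 0.168 FPKM. MAEL, needed for piRNA function in germ cells, reached 4.47 FPKM there and 0.0605 to 0.894 FPKM elsewhere. PIWIL1, MOV10L1, PLD6 and ASZ1 were listed at 0 in at least 1 of the other ovaries, and there every gene of the list was below 1 FPKM.

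The ovaries other than ZD8 also differed in a way that did not follow litter size. XPO5 and TARBP2 were higher in ZD2, ZD12 and ZD7 than in ZD3 and ZD5, while DICER1 and AGO3 were higher in ZD3 and ZD5 than in the other 3. The order of the 5 ovaries was the same for DICER1 and AGO3 (ZD3, ZD5, ZD7, ZD12, ZD2 from high to low). Across 12250 genes with an annotated length, the level in an ovary relative to the mean of the 6 ovaries was correlated with the length of the longest transcript. Spearman's rho was -0.29 in ZD2, -0.33 in ZD12 and -0.20 in ZD7, and 0.15 in ZD3, 0.04 in ZD5 and 0.23 in ZD8, across genes, which are not independent replicates. The longest transcripts of DICER1 (12347 nt) and AGO3 (16626 nt) are far above the median of 3400 nt, that of TARBP2 (1693 nt) is below it and that of XPO5 (5959 nt) is above it. Those of AGO4 (9305 nt), TNRC6A (8726 nt) and AGO1 (8634 nt) are also long, and these genes did not share the order of DICER1 and AGO3, since ZD12 was above ZD5 for each of them. The part of transcript length in these levels was not tested.

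Other genes of the pathway, in 4 lists, were placed beside the 10. Among 15 cofactors of processing, 13 were tested and 0 were called or had an unadjusted p under 0.05 by limma, with 5 higher and 8 lower in LLS and a median log2 difference of -0.09. Without ZD8, 1 was higher and 12 were lower (median -0.27). LIN28A and LIN28B, which hold back let-7, were below the filter. RAN, the GTPase that exportin 5 needs, was at 80.2, 85.1 and 94.6 FPKM in the SLS ovaries and at 60.3, 69.7 and 51.1 FPKM in the LLS ovaries, in the order used above. RAN was 1 of the 13 cofactors without overlap, LLS below, as in 3.17% of all genes, at a log2 difference of -0.52 (standard error 0.27, adjusted p = 0.999 by limma). SRSF3, a splicing factor that helps the Microprocessor find its hairpins, was at -0.19. The RNA helicase DDX17, a partner of DROSHA, and the RNA-binding protein HNRNPA1 were the most abundant, with means in SLS of 138 and 110 FPKM. DDX17 was at 125, 139 and 149 FPKM in the SLS ovaries and at 120, 118 and 228 FPKM in the LLS ovaries, so that its difference of 0.10 rested on ZD8, with ZD5 and ZD7 below every SLS ovary. HNRNPA1 had a difference of 0.05 and was also highest in ZD8 (193 FPKM against 77.8 to 130 FPKM).

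Of 15 partners of Argonaute, 14 were tested, 0 were called and 0 had an unadjusted p under 0.05 by limma, with 6 higher and 8 lower in LLS (median -0.04), and 3 higher and 11 lower without ZD8 (median -0.14). The chaperone genes HSP90AB1 and HSP90AA1, whose proteins open Argonaute for loading, were at 351 and 339 FPKM in SLS and 337 and 342 FPKM in LLS. AJUBA had a difference of -0.53 and TNRC6C of 0.45, the latter with ZD8 far above the other 5 ovaries and ZD5 and ZD7 below every SLS ovary. Of 23 genes of deadenylation and decay, 22 were tested and 0 were called, again with 0 under an unadjusted 0.05, with 19 higher and 3 lower in LLS (median 0.14). Without ZD8 the balance turned to 6 higher and 16 lower (median -0.13). PAN3, of a deadenylase complex, was at 25.4 FPKM in ZD8 and 7.54 to 11.0 FPKM elsewhere, and CNOT9, of the CCR4-NOT complex, was at 9.85 FPKM in ZD8 and 13.1 to 16.5 FPKM elsewhere. PABPC1, the poly(A)-binding protein, and the helicase DDX6 were the most abundant of this list, at 190 and 49.5 FPKM in SLS and 207 and 55.2 FPKM in LLS.

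Of the 9 genes of miRNA tailing and turnover, 9 were tested, 0 were called and 0 had an unadjusted p under 0.05 by limma, with 8 higher and 1 lower in LLS (median 0.09). Without ZD8 this turned to 1 higher and 8 lower (median -0.17). ZCCHC11 (TUT4), which adds uridines to miRNA precursors, was at 16.3 FPKM in ZD8 and 3.62 to 7.55 FPKM elsewhere. PNPT1 was at 2.90 FPKM in ZD8 and 4.91 to 11.2 FPKM elsewhere. The exonuclease genes XRN2 and DIS3L2 had means of 17.5 and 11.3 FPKM in SLS and 18.2 and 12.5 FPKM in LLS. ZD8 was the highest ovary for 7 of 9 genes of this list, 15 of 22 of deadenylation and decay, 6 of 14 Argonaute partners and 7 of 13 cofactors, beside the 44.6% of all tested genes given above.

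**Figure D4:**
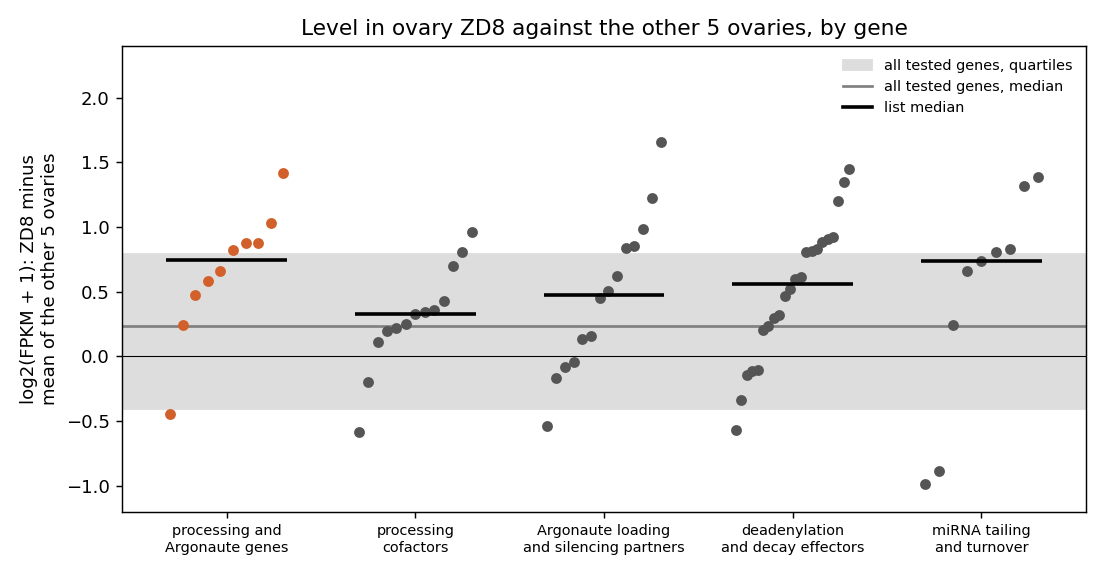
Level in ZD8 minus the mean of the other 5 ovaries, on the log2(FPKM + 1) scale, for the 10 genes (orange) and 4 other lists of the pathway (grey, 1 point per tested gene), with the median of each list and the quartiles of all tested genes (band). The median is 0.74 for the 10 genes and 0.23 for all tested genes.

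Mature miRNAs that depend on single steps of the pathway were read from the small RNA libraries. No miRNA was called between the groups (0 of 353 by limma, 0%, with 0 at an unadjusted p under 0.05 and 0 called by edgeR, with 4 at an unadjusted p under 0.05). miR-451, which skips DICER1 and is instead cut by AGO2, varied widely between ovaries. Its hairpin lies at chr12:45088808-45088872 (minus strand), and its mature sequence is shown with the seed in capitals, since it runs through the loop of its hairpin, which DICER1 removes from other miRNAs.
miR-451: aAACCGTTaccattactgagtt

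miR-451 was at 59104, 15530 and 1900 RPM in ZD2, ZD3 and ZD12 and at 9369, 7552 and 361 RPM in ZD5, ZD7 and ZD8, a 164-fold range. In ZD8, where miR-451 was lowest, AGO2 was highest, and the part of AGO2 in the level of miR-451 was not tested. miR-451 is abundant in red blood cells, and the red cell transcripts HBB, ALAS2 and SLC4A1 were chosen beside it after its values were seen. HBB, a globin gene, was at 314, 63.1 and 52.9 FPKM in ZD2, ZD3 and ZD12 and at 54.8, 157 and 28.5 FPKM in ZD5, ZD7 and ZD8. ALAS2, the first enzyme of heme synthesis in red cells, was at 4.57 FPKM in ZD2 and 0.215 FPKM in ZD8. miR-144, from the same cluster as miR-451, was at 2136 RPM in ZD2 and 10.6 RPM in ZD8. miR-451, miR-144, HBB and ALAS2 were thus highest in ZD2 and lowest in ZD8. SLC4A1, the anion exchanger of red cells, did not show this order, since it was listed at 0 in 5 ovaries, ZD2 among them, and at 0.0081 FPKM in ZD3. The part of blood in the level of miR-451 was not tested. Its log2 difference was -2.03 with a standard error of 1.48 (limma, adjusted p = 0.997). The exact permutation test gave p = 0.4, and the difference ran from -3.36 to -0.52 with 1 ovary left out, the latter without ZD8.

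miR-320, which is made without DROSHA, was at 678, 1115 and 1653 RPM in ZD2, ZD3 and ZD12 and at 1342, 1029 and 2228 RPM in ZD5, ZD7 and ZD8. It was highest in ZD8, where DROSHA was highest too, and the groups overlapped (log2 difference 0.43, standard error 0.46, adjusted p = 0.997 by limma). The entry for miR-484, also made without DROSHA, had 2 reads in ZD3, 1 read in ZD12 and 0 in the other 4 libraries. These are at or under the 3 reads (0.304 to 0.848 RPM) that a count of 0 allows. The entry holds only the sequence cccagggggcgacccaggct, and its count does not cover the other arm of the hairpin. let-7a was at 11569 to 31486 RPM and let-7f at 15361 to 28474 RPM, both lowest in ZD2. The differences of LLS from SLS for let-7a (0.10), let-7f (0.27), miR-103 (-0.12), miR-107 (-0.12) and the arms of miR-1306 (0.13 for 5p and 0.07 for 3p) had adjusted p-values of 0.997 by limma. Without ZD8, miR-103 (0.32) and miR-107 (0.38) turned above 0 and let-7a (-0.065) below it, while miR-320 was at 0.13, let-7f at 0.25 and the arms of miR-1306 at 0.41 (5p) and 0.38 (3p), none of them called.

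**Figure D5:**
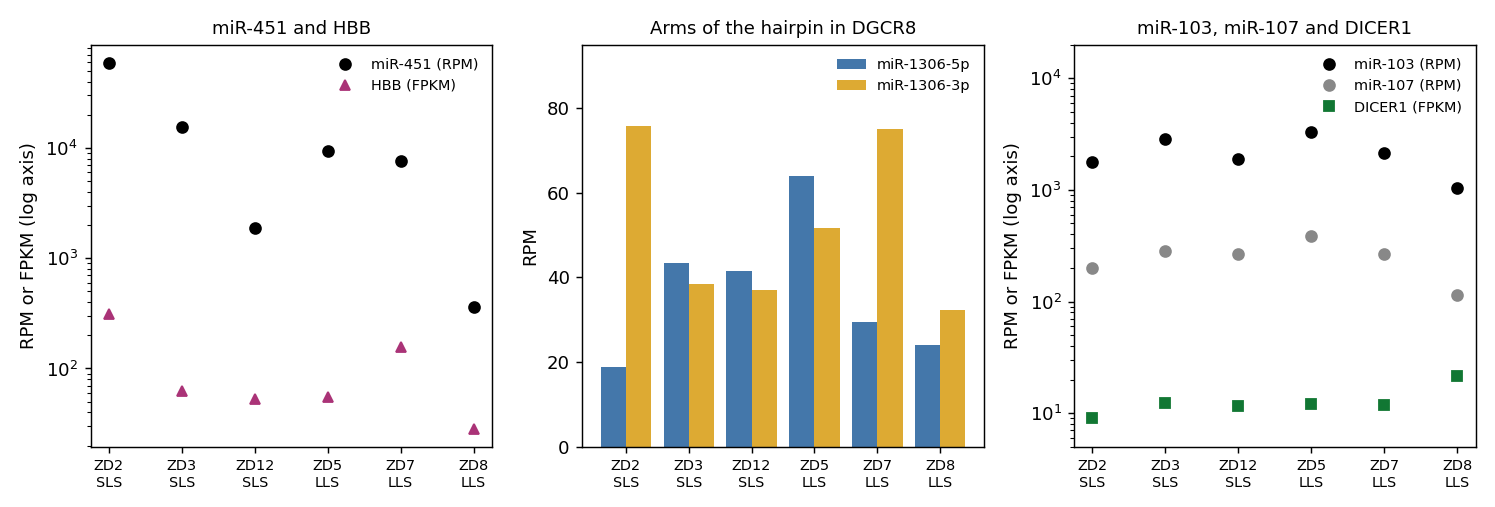
Left, miR-451 (RPM) and HBB (FPKM) per ovary on a log axis. Middle, the 2 arms of miR-1306 (RPM). Right, miR-103 and miR-107 (RPM) and DICER1 (FPKM) on a log axis. The arms of miR-1306 are far apart in ZD2 (18.8 and 75.8 RPM) and ZD7, and miR-451 runs from 59104 RPM in ZD2 to 361 RPM in ZD8.

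For each of the 10 genes, the 3 tested genes with the most similar pattern were found by Pearson's r of log2(FPKM + 1) over the 6 ovaries. These are descriptions over 6 points that share libraries, picked as the highest among all other tested genes. For DICER1 they were LOC100514009, RMND5A and ZKSCAN1 (r of 0.998, 0.997 and 0.996), and for XPO5 ASNA1, CHFR and ATOX1 (0.999, 0.997 and 0.996). ASNA1 was at 56.2, 36.0 and 52.5 FPKM in the SLS ovaries and 32.6, 49.1 and 24.8 FPKM in the LLS ovaries, the same order of ovaries as XPO5. For DGCR8 they were EDA, MAN2C1 and BMP2 (0.999 each), and for DROSHA TSHZ1, APLP1 and SF1 (0.997, 0.997 and 0.996). AGO1 was closest to RCL1, RBBP5 and SYNRG (0.998, 0.997 and 0.997), AGO2 to SLC38A1, LOC100516485 and NFATC1 (0.998, 0.997 and 0.996), AGO3 to SMURF2, CNOT4 and PITPNC1 (0.994, 0.993 and 0.991) and AGO4 to ZDHHC15, LOC102160517 and CEP290 (0.995, 0.992 and 0.990). TARBP2 was closest to UBE2G2, DGCR14 and GUK1 (0.995, 0.993 and 0.992), and TNRC6A to RFX3, CEP128 and GPATCH2 (0.999 each). None of the 3 genes nearest to 1 of the 10 was among the 3 nearest to another.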

How the data were processed

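Gene levels are FPKM as deposited by the authors, who used NGSQCToolkit for quality control and HISAT2 for mapping to Sscrofa11.1. The program that counted reads on genes is not given in the sources used here. For miRNAs the authors deposited RPM values (read numbers scaled to library size, named TPM by them), and BWA is named in the submitters' processing notes. All 12 columns of values were used.

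Whole reads were recovered for 23477 of 23564 genes above 0 FPKM (99.6%, deviation of at most 0.001 read) with the longest annotated transcript, and for 100% of 2618 miRNA values. R 4.3.3, limma 3.58.1 (trended variance, log2(value + 1), at least 1 FPKM or RPM in at least 3 libraries), edgeR 4.0.16 and DESeq2 1.42.0 were used, with Benjamini-Hochberg adjustment over all features tested. The thresholds, an adjusted p under 0.05 and an absolute log2 difference over 1, are those of the study's methods. Single values were compared by exact two-sided permutation tests. P-values set a difference between the groups against the spread between these ovaries, and intervals of shares cover counting error only. The genes and lists were chosen with earlier results of these data known. All 10 genes, the fixed miRNAs and, of each other pathway list, the 2 genes with the largest difference and the 2 most abundant are named. Other genes named (POLR1C, POLH, CLSPN, LOC102165851, TNRC6B, HBB, ALAS2, SLC4A1, miR-144 and the germ line genes) were chosen after their values were seen. The same holds for LIN28A, LIN28B and the markers named singly (ZP2, FIGLA, CYP19A1, INHA, FSHR, AMH, FOXL2, MYH11, KRT7 and KRT18).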

Additional observations from a re-analysis of the deposited data

How the results depend on the processing

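Among 17 alternatives (other pseudocounts, filters, scalings and tools, and 1 ovary left out), 0 of the 10 genes were called, with adjusted p-values of 0.622 to 1. Over all genes, 0 calls became 13 with array weights (6 higher in LLS), 20 with DESeq2 (11 higher) and 0 to 20 with 1 ovary left out, the 20 (14 higher) only without ZD8, while edgeR gave 0 calls with 220 genes at an unadjusted p under 0.05. Array weights turned DROSHA to -0.14, DGCR8 to -0.30, AGO1 to -0.062, AGO2 to -0.31, AGO4 to -0.077 and TNRC6A to -0.13, while the median of all genes moved from 0.02 to -0.12. With 1 ovary left out, the log2 difference ran from -0.14 to 0.21 for DROSHA, -0.27 to 0.23 for DGCR8, -0.39 to -0.12 for XPO5, 0.11 to 0.53 for DICER1, -0.33 to 0.16 for TARBP2, -0.059 to 0.31 for AGO1, -0.31 to 0.37 for AGO2, 0.13 to 0.64 for AGO3, -0.15 to 0.19 for AGO4 and -0.20 to 0.66 for TNRC6A. DROSHA, DGCR8, AGO1, AGO2, AGO4 and TNRC6A turned below 0 without ZD8, DGCR8 also without ZD3 (-0.043), AGO4 also without ZD2 (-0.11), and TARBP2 turned above 0 without ZD12 (0.16) or ZD5 (0.12). The cause was not tested. Direction held in all 17 alternatives for XPO5, DICER1 and AGO3. With 1 ovary left out, the LLS minus SLS difference in share ran from -1.04 to 1.59 percentage points for AGO1 and from -4.40 to 1.48 for AGO2. For AGO3 it ran from 1.37 to 5.05 and for AGO4 from -2.97 to -0.21.

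No miRNA was called under any of the 10 alternatives run on miRNAs (smallest adjusted p 0.0691, without ZD8). With 1 ovary left out, miR-320 ran from 0.10 to 0.74, miR-1306-5p from -0.28 to 0.41, miR-1306-3p from -0.22 to 0.40 (-0.037 by edgeR), miR-103 from -0.50 to 0.32, miR-107 from -0.50 to 0.38, let-7a from -0.35 to 0.37 and let-7f from 0.030 to 0.40. No paired analysis was possible because the groups are different sows and nothing in the labels ties an SLS sow to an LLS sow.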
